A study of Homo sapiens with 9 samples.

Results

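The 10 tight junction genes *CLDN1*, *CLDN3*, *CLDN4*, *CLDN6*, *CLDN7*, *CLDN11*, *CLDN12*, *OCLN*, *CXADR* and *TJP1* were chosen by gene symbol from the 60708 genes of the count tables and followed through 9 RNA-sequencing libraries. The libraries were labelled as MDA-MB-231, an established human cell line of triple-negative breast cancer with basal and mesenchymal traits. Of these libraries, 3 were labelled WT, 3 were labelled with the *SNAI1*-KO clone CS16 and 3 with the *SNAI1*-KO clone CS19, and all cells were untreated. Each clone had been grown from a single cell after transfection with Cas9, a pool of guide RNA plasmids against *SNAI1* and a repair plasmid, followed by puromycin selection, so each knockout group stands for 1 clone. In the sources used here the WT cells are described neither as a clone nor as transfected and selected. Whether the 3 libraries of a group came from separate cultures is not stated, and the p-values therefore measure the spread between these libraries, which may be technical.

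Tight junctions are the outermost belt of contacts between epithelial cells. Claudins are small membrane proteins whose strands seal the space between neighbouring cells or form ion-selective pores in it, and occludin, CXADR and other adhesion proteins lie in the same belt. ZO proteins, of which *TJP1* encodes ZO-1, bind their cytoplasmic tails and tie them to actin. SNAI1 is a zinc-finger repressor of the epithelial-mesenchymal transition that binds E-boxes of the form CAGGTG, and claudin and occludin genes are among its known targets.

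*SNAI1* itself, a gene of chromosome 20, had 16, 38 and 21 counts in WT-1 to WT-3, 26, 40 and 49 counts in the libraries labelled CS16 and 57, 94 and 94 counts in those labelled CS19. Its counts were thus not lower under the knockout labels, and the labels are used below as names only. Counts over a whole gene cannot show a deletion of part of it. The paper reports such deletions in *SNAI1* from its aligned reads. For both clones it also reports lower *SNAI1* mRNA at each exon by RT-qPCR and no detectable SNAI1 protein. The summed level of 8 markers of the basal breast line ranged from 8730 to 10860 CPM in WT, from 361 to 392 CPM in CS16 and from 336 to 341 CPM in CS19, where CPM is the count scaled to the size of the library after TMM normalization. Of the 8 markers, *CD44* and *S100A6* had 0 counts in CS16 and at most 2 and 1 counts in CS19. Most of the sum in the clones was *VIM*, at 303 to 356 CPM there against 665 to 1094 CPM in WT. *CAV1* and *EGFR* were lower but present, at 15.3 to 25.1 and 12.2 to 18.9 CPM in the clones. In WT these 2 genes were at no less than 616 and 300 CPM. Summed epithelial markers (*CDH1*, *EPCAM*, *ESRP1*, *ESRP2*, *CDH3*, *GRHL2*) reached 22.9 to 32.5 CPM in WT, 5.35 to 7.11 CPM in CS16 and 6.81 to 7.04 CPM in CS19. The fall of this sum lay in *EPCAM* and *ESRP2*, whereas the E-cadherin gene *CDH1* rose from 0.970 to 1.87 CPM in WT to 3.38 to 4.51 CPM in the clones (log2 fold change 1.38, Benjamini-Hochberg adjusted p = 0.000577 by edgeR's quasi-likelihood test). Summed luminal markers, mainly the keratin genes *KRT8*, *KRT18* and *KRT19*, fell from 1448 to 2125 CPM in WT to 55.9 to 97.9 CPM in the clones. Of 6 luminal genes tested, 5 passed an adjusted p of 0.05 as lower. *FOXA1* passed as higher, with at most 2 counts in WT, 63 to 86 in CS16 and 336 to 494 in CS19. Summed kidney markers were at 33.7 to 67.5 CPM in WT, 33.5 to 37.1 CPM in CS16 and 29.0 to 30.6 CPM in CS19. Of these, 4 passed as higher, among them *SALL1* with 0 counts in WT and 15.7 to 23.6 CPM in the clones. *PAX8* and *OSR1* passed as lower, from at least 10.4 and 16.7 CPM in WT to at most 0.0655 and 0.143 CPM. Summed neural markers ran from 0.308 to 0.641 CPM in WT and from 117.7 to 172 CPM in the clones. This rise lay in *NEFL*, *NEFM* and *SOX2*, whereas *INA* had 1 to 12 counts and *DCX* at most 1 count in the clones. The 9p21 genes *CDKN2A*, *CDKN2B* and *MTAP* were at 0 counts in WT against a sum of 164 to 182 CPM in the clones. The 6 libraries labelled *SNAI1*-KO thus went against their cell line label in several markers of the line, such as *CD44* and *S100A6*, while *VIM* was lower but present. Their origin was not tested, so every value below compares libraries by label, and the part of these marker differences in the results on junction genes was not tested either. WT-2 also differed from the other WT libraries. Values without it are given for members where it changed a call or a direction, and for *CLDN15* alone of the other junction genes. Summed endothelial markers (at most 6.45 CPM) and leukocyte markers (at most 3.21 CPM) were low in every library.

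Because SNAI1 binds CAGGTG, this motif was searched on both strands, as CAGGTG or CACCTG, in the RefSeq promoter windows of the members, which reach from 250 bases before to 50 bases from the transcription start (GRCh38.p14). Windows were listed for 9 of the 10 members, without *CXADR*, and some members had several. Of all 35116 windows, 20.6% held the motif, as did 6 of the 15 windows of the members. The 5 members with a match were *CLDN3*, *CLDN6*, *CLDN7*, *OCLN* and *TJP1*. A match describes the letters of the window and does not show binding. The stretches below are those of the members whose levels differed between WT and the clones. They are written 5′ to 3′ on the strand of the gene, with the motif in capitals. The position of its first base is relative to the start site of its window (base 1). For *OCLN* the motif at -33 refers to the start site at 69492547, and those at -133 and 36 to the start site at 69492790.

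*CLDN7*, chr17:7262635-7262664, minus strand, motif at -174: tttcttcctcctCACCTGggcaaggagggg
*CLDN7*, chr17:7262596-7262625, minus strand, motif at -135: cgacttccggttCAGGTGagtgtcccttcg
*CLDN7*, chr17:7262481-7262510, minus strand, motif at -20: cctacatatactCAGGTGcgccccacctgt
*CLDN7*, chr17:7262470-7262499, minus strand, motif at -9: tcaggtgcgcccCACCTGtccgcccgcacc
*CLDN7*, chr17:7262456-7262485, minus strand, motif at 6: cctgtccgcccgCACCTGctggctcacctc
*CLDN3*, chr7:73770221-73770246, minus strand, motif at 37: caaagccacaggCAGGTGcaggcgca
*OCLN*, chr5:69492502-69492531, plus strand, motif at -33: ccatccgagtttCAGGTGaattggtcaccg
*OCLN*, chr5:69492645-69492674, plus strand, motif at -133: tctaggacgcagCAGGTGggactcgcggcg
*OCLN*, chr5:69492813-69492839, plus strand, motif at 36: tcggtgcggcgtCAGGTGcgcccgcca
*TJP1*, chr15:29969120-29969149, minus strand, motif at -88: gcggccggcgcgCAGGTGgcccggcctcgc

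*CLDN7* held 5 matches in the second of its windows and none in the first, and windows with at least 5 matches made up 0.094% of all windows. The motifs at -20, -9 and 6 lie so close that their printed stretches overlap. No match was found in the windows of *CLDN1*, *CLDN4*, *CLDN11* and *CLDN12*. The members with matches included genes that were lower in the clones (*CLDN3*, *CLDN7*, *TJP1*) and a gene that was higher (*OCLN*), as the values below show.

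The first comparison asked how the junction genes of the 6 libraries labelled *SNAI1*-KO differed from the 3 WT libraries. *CLDN4*, *CLDN7* and *CLDN11* fell to a few counts per library in both clones, and *CLDN3*, already low in WT, had a single count in the 6 libraries. *OCLN* and *CXADR* rose by 2.52-fold and 2.94-fold, and *TJP1* fell by 0.69 on the log2 scale. *CLDN12* showed no difference beyond its spread, and *CLDN1* went opposite ways in the clones. Genes were tested with edgeR's quasi-likelihood (QL) test across all genes that passed a filter on low counts, p-values were adjusted by the Benjamini-Hochberg (BH) method over all of them, and a gene was called when it passed an adjusted p of 0.05 and its log2 fold change was 2 or more, or -2 or less. In bulk RNA, fewer cells of a type and less RNA per cell cannot be told apart.

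Of the 10 members, 8 passed the filter, and *CLDN3* and *CLDN6* did not. The 3 calls were *CLDN4*, *CLDN7* and *CLDN11*, all lower under the knockout labels, where 14.3% of the 19631 genes tested were called lower, 12.6% higher and 26.9% either way. These genes passed the filter through their WT libraries only, so they had to differ, and their number is a description. The adjusted p alone was passed by 63.7% of all genes tested, and among the members also by *OCLN*, *CXADR* and *TJP1*. The median log2 fold change of the 8 genes was -0.44, against -0.0040 for all genes tested. It includes the 3 called genes that had to differ and *CLDN1*, which went opposite ways in the clones. This median is therefore a description and shows no shift of the members as a set.

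**Figure D1:**
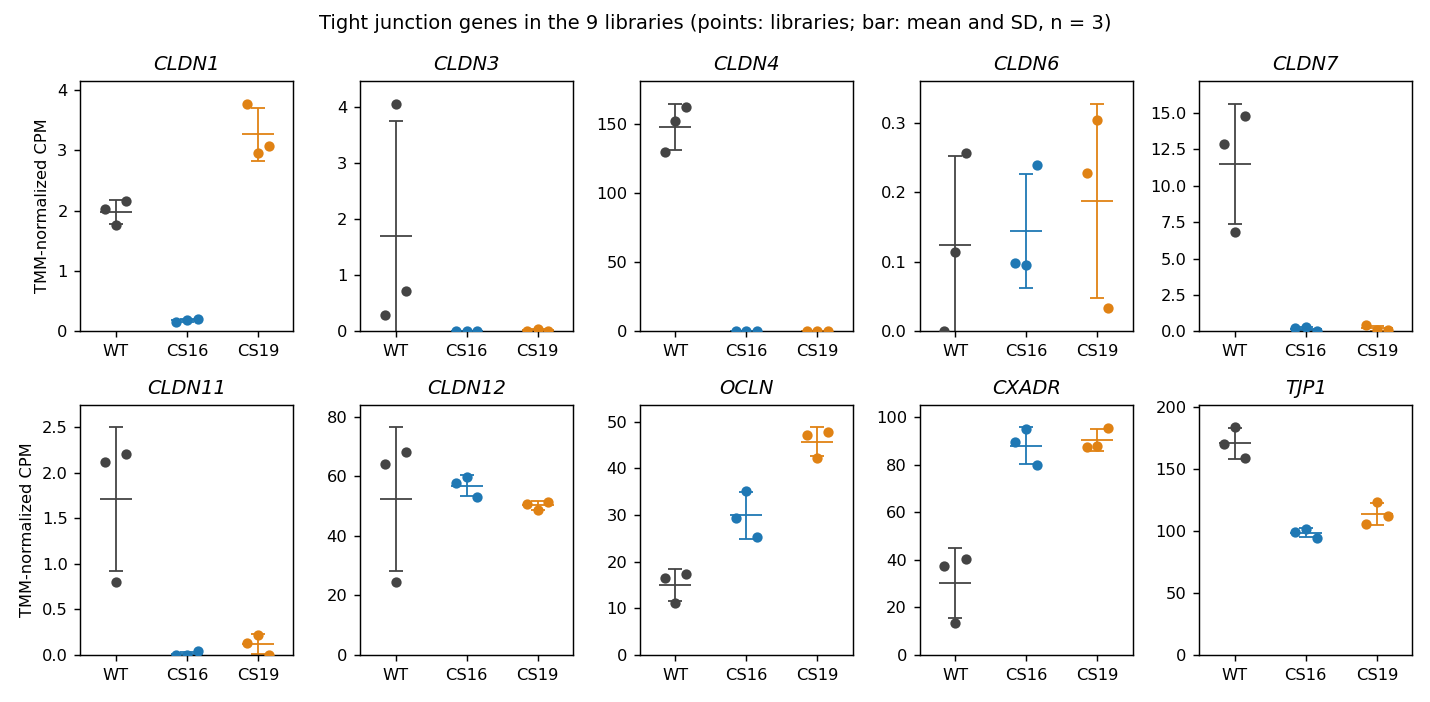
TMM-normalized CPM (vertical axes, linear, a scale of its own for each gene) of the 10 tight junction genes in the WT, CS16 and CS19 libraries; points are libraries and bars show the mean and SD of 3 libraries. *CLDN4*, *CLDN7* and *CLDN11* lie near 0 in both clones, *CLDN1* is near 0 in CS16 alone, and 1 WT library, WT-2, lies apart from the other WT points for *CLDN3*, *CLDN7*, *CLDN11*, *CLDN12* and *CXADR*.

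*CLDN4* (chromosome 7, 73799542 to 73832690) encodes a sealing claudin of simple epithelia that also restricts the passage of sodium. It was at 129.7, 152.6 and 162.3 CPM in WT-1 to WT-3, which rested on 2629, 2676 and 3161 counts. In the clones it had 8, 5 and 5 counts in CS16 and 9, 2 and 6 counts in CS19, or 0.0867 to 0.409 CPM. WT lay far above the clones, whose libraries overlapped each other. The log2 fold change was -9.19 for the libraries labelled *SNAI1*-KO against WT (standard error 0.28, edgeR QL, BH-adjusted p = 5.74e-10), with lower values in 6 of 6 libraries.

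*CLDN7* (chromosome 17, 7259903 to 7263983) encodes a claudin found along the whole lateral membrane of many epithelia as well as in the junction. Its levels were 12.9, 6.85 and 14.8 CPM in WT-1 to WT-3, from 261, 120 and 288 counts. CS16 had 4, 6 and 1 counts and CS19 had 9, 2 and 3 counts. WT-2 held the lowest WT level, yet every WT library was above every library of the clones. The log2 fold change was -5.96 (standard error 0.45, edgeR QL, BH-adjusted p = 4.37e-07). Exons of *CLDN7* share 38 bases with *ELP5* on the opposite strand and 269 bases with ENSG00000262302, which had 0 counts, and strand was not used in the counting.

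*CLDN11* (chromosome 3, 170418868 to 170454733) encodes the claudin of myelin and of the Sertoli cell barrier. It was low in WT, with 43, 14 and 43 counts or 2.12, 0.799 and 2.21 CPM. CS16 had 0, 0 and 1 counts and CS19 had 3, 5 and 0 counts. The groups did not overlap, although the clones lay near the floor of 3 counts, which equalled 0.0982 to 0.171 CPM depending on the library. The log2 fold change of both clones against WT was -4.63 (standard error 0.70, edgeR QL, BH-adjusted p = 0.000121). Against the single count of CS16, the ratio of depth-scaled counts was 116.1 with a 95% counting interval of 20.4 to 4629, and such intervals cover counting error only because the reads carried no molecular identifiers. Of its exon bases, 15.81% are shared with ENSG00000285218, which had 0 counts in every library.

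*CLDN3* (chromosome 7, 73768997 to 73770270) encodes a sealing claudin and lies in the same stretch of chromosome 7 as *CLDN4*. It had 6, 71 and 14 counts in WT-1 to WT-3, and most of the WT counts thus came from WT-2. CS16 had 0 counts in all 3 libraries and CS19 had 0, 1 and 0 counts. *CLDN3* was at least 12.4-fold lower in CS16, set against a floor of 3 counts, and at least 3.72-fold lower without WT-2. The ratio of WT to CS19 was 120.1 with a 95% counting interval of 21.02 to 4796, and 38.04 (6.08 to 1577) without WT-2. The main test did not cover *CLDN3* because it failed the filter. Its level per length in WT, 1.33 CPM per kilobase of exon, was 0.398 without WT-2.

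*CLDN6* (chromosome 16, 3014712 to 3020071), a claudin of embryonic epithelia, was at or near the floor everywhere. It had 0, 2 and 5 counts in WT, 2, 2 and 6 in CS16 and 5, 7 and 1 in CS19, and the 3 groups overlapped. A difference was not detectable at this depth. Its exons share 40 bases with *TNFRSF12A* on the opposite strand, a gene with up to 3716 counts.

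*CLDN1* (chromosome 3, 190305707 to 190322446) encodes a sealing claudin that the epidermal barrier needs. Its levels were 2.02, 1.77 and 2.16 CPM in WT-1 to WT-3, 0.147, 0.191 and 0.199 CPM in CS16 and 3.77, 2.95 and 3.08 CPM in CS19. In counts, these were 41, 31 and 42 in WT, 3, 4 and 5 in CS16 and 83, 68 and 94 in CS19. The 3 groups did not overlap, with CS16 below and CS19 above WT. Taken as 1 group the clones gave a log2 fold change of -0.19 with a standard error of 0.88 (edgeR QL, BH-adjusted p = 0.862), a value whose sign turned when any 1 CS16 library was left out (0.041 to 0.045) and which was -1.35 (edgeR QL, BH-adjusted p = 0.000311) when CS16 and CS19 were separate groups of 1 fit.

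*CLDN12* (chromosome 7, 90383721 to 90513402) encodes a claudin without the usual PDZ-binding tail. It was at 64.2, 24.6 and 68.1 CPM in WT-1 to WT-3, 57.7, 59.8 and 53.0 CPM in CS16 and 50.6, 48.7 and 51.4 CPM in CS19. The clones lay between WT-2 and the other WT libraries, so the groups overlapped. The log2 fold change was 0.03 (standard error 0.26, edgeR QL, BH-adjusted p = 0.922). Without WT-2 it was -0.31 with a BH-adjusted p of 0.0170 by edgeR QL, a direction that therefore rests on WT-1 and WT-3. *CLDN12* shares 347 exon bases with *GTPBP10* and 201 with *CDK14* on the same strand, and pairs falling on 2 genes were not counted for either.

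*OCLN* (chromosome 5, 69492292 to 69558104) encodes occludin, a 4-pass membrane protein with a MARVEL domain that regulates the junction. Its levels were 16.5, 11.1 and 17.4 CPM in WT-1 to WT-3, 29.4, 35.2 and 25.2 CPM in CS16 and 47.2, 42.2 and 47.7 CPM in CS19. The groups formed 3 separate steps, with WT lowest and CS19 highest. *OCLN* rose by a log2 fold change of 1.33 over both clones (standard error 0.25, edgeR QL, BH-adjusted p = 0.000632), with higher values in 6 of 6 libraries. Its pseudogene copy *OCLNP1* had 1 to 10 counts, and pairs that matched both about equally well would have been lost to the mapping-quality filter.

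*CXADR* (chromosome 21, 17513043 to 17593579) encodes the coxsackievirus and adenovirus receptor, an immunoglobulin-domain adhesion protein of the junction. It was at 37.3, 13.3 and 40.5 CPM in WT-1 to WT-3, 89.6, 94.9 and 79.8 CPM in CS16 and 87.6, 88.0 and 95.7 CPM in CS19. All 6 libraries of the clones lay above WT, and the clones overlapped each other. The log2 fold change was 1.55 (standard error 0.29, edgeR QL, BH-adjusted p = 0.000631) and 1.19 without WT-2 (edgeR QL, BH-adjusted p = 1.11e-06). The copies *CXADRP1*, *CXADRP2* and *CXADRP3* had at most 1 count in a library.

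*TJP1* (chromosome 15, 29699367 to 29968915), the gene of the scaffold ZO-1, was at 169.9, 183.6 and 158.5 CPM in WT-1 to WT-3, 99.4, 101.6 and 94.5 CPM in CS16 and 105.9, 123.5 and 112.2 CPM in CS19. Every library of the clones lay below WT. The log2 fold change was -0.69 (standard error 0.13, edgeR QL, BH-adjusted p = 0.00055), which is a WT level 1.61-fold that of the clones.

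Each clone was then set against the same 3 WT libraries separately, and because both comparisons share those libraries their values are given side by side only. Against WT, CS16 had 4 calls, all lower, namely *CLDN1*, *CLDN4*, *CLDN7* and *CLDN11*, where 15.3% of 18611 genes were called lower and 27.1% either way, and 28.6% and 55.6% passed the adjusted p as lower and either way. These members passed the filter through WT alone and had to differ. CS19 had 3, again all lower, namely *CLDN4*, *CLDN7* and *CLDN11*, where 14.4% of 18935 genes were called lower and 26.4% either way, and 26.6% and 52.9% passed the adjusted p as lower and either way. *CLDN4* had a log2 fold change of -9.02 in CS16 (standard error 0.31, edgeR QL, BH-adjusted p = 4.18e-06) and of -9.28 in CS19 (standard error 0.44, edgeR QL, BH-adjusted p = 5.72e-06). *CLDN7* had -6.02 and -5.84 on this scale (edgeR QL, BH-adjusted p = 0.000119 and 0.000141). *CLDN11* had -3.87 in CS19 (standard error 0.79, edgeR QL, BH-adjusted p = 0.00462). *CLDN1* fell by 3.39 in CS16 (standard error 0.33, edgeR QL, BH-adjusted p = 0.000129), and by 3.32 without a filter, and rose by 0.75 in CS19 (standard error 0.25, edgeR QL, BH-adjusted p = 0.0349), a rise whose adjusted p reached 0.128 without CS19-1 and 0.053 with DESeq2. It also exceeded 0.05 without WT-1, WT-3, CS19-2 or CS19-3, at between 0.0529 and 0.0923 (edgeR QL).

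The genes that rose did so in each clone. *OCLN* rose by 1.03 in CS16 (standard error 0.24, edgeR QL, BH-adjusted p = 0.00837) and by 1.65 in CS19 (standard error 0.22, edgeR QL, BH-adjusted p = 0.000581), both on the log2 scale. *CXADR* rose by 1.57 in CS16 (standard error 0.39, edgeR QL, BH-adjusted p = 0.0111) and by 1.62 in CS19 (standard error 0.39, edgeR QL, BH-adjusted p = 0.00959). *TJP1* had a log2 fold change of -0.77 in CS16 (standard error 0.16, edgeR QL, BH-adjusted p = 0.00471) and of -0.55 in CS19 (standard error 0.17, edgeR QL, BH-adjusted p = 0.0279), and the latter had an adjusted p of 0.153 without CS19-1, 0.148 without CS19-3, 0.0772 without CS19-2 and 0.0525 without WT-1. *CLDN12* had log2 fold changes of 0.15 in CS16 (standard error 0.36, edgeR QL, BH-adjusted p = 0.743) and -0.02 in CS19 (standard error 0.36, edgeR QL, BH-adjusted p = 0.971). Without WT-2 these values of *CLDN12* were -0.22 and -0.38, with BH-adjusted p of 0.0512 and 0.00184 by edgeR QL.

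**Figure D2:**
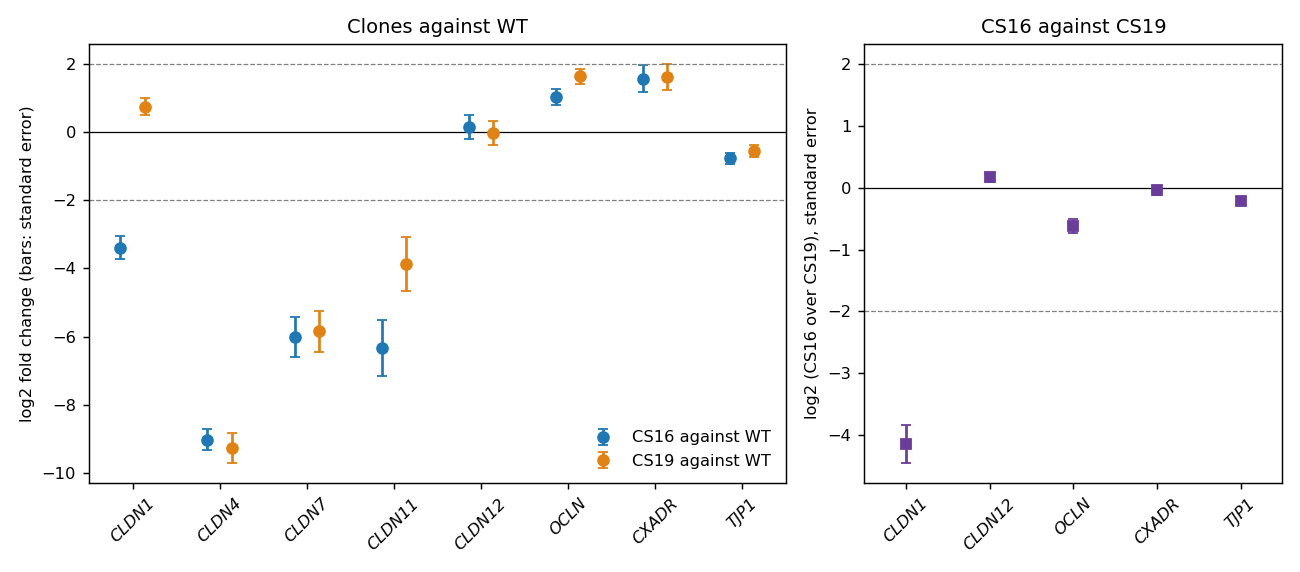
Log2 fold changes of the members that passed the filter (left, each clone against the shared WT libraries; right, CS16 over CS19), with points for the fitted values, bars for the standard errors and dashed lines at 2 and -2. *CLDN1* is the gene whose clones lie on opposite sides of 0 against WT, and in the direct comparison it stands at -4.14; the value of *CLDN11* in CS16 rests on 1 count there.

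The direct comparison of CS16 with CS19 asked where the junction genes of the clones differed, without the WT libraries. Here 5 of the 10 members passed the filter. *CLDN1* was the 1 call, at 0.147 to 0.199 CPM in CS16 against 2.95 to 3.77 CPM in CS19, where 0.496% of 17538 genes were called lower in CS16, 0.633% higher and 1.13% either way. Its log2 fold change of CS16 over CS19 was -4.14 (standard error 0.31, edgeR QL, BH-adjusted p = 7.94e-07), or 17.7-fold. It passed the filter through CS19 alone and had to differ, and the value without a filter was also -4.14. *OCLN* was also lower in CS16, by a log2 fold change of -0.62 (standard error 0.11, edgeR QL, BH-adjusted p = 0.000884), with no overlap between the clones, but with an adjusted p of 0.166 when WT shared the fit. *TJP1* was lower in CS16 by a log2 fold change of -0.21 (standard error 0.07, edgeR QL, BH-adjusted p = 0.0311), which no longer passed without CS16-1, CS16-3, CS19-2 or CS19-3 (adjusted p of 0.0836 to 0.168) or with RLE factors (0.0515). *CXADR* and *CLDN12* did not pass, with differences of -0.04 (standard error 0.07, edgeR QL, BH-adjusted p = 0.713) and 0.17 (standard error 0.07, edgeR QL, BH-adjusted p = 0.105). Between the clones, 27.4% of all genes tested passed the adjusted p.

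Levels can be compared between genes only per length, as CPM per kilobase of annotated exon. In WT the order was *CLDN4* (31.5), *TJP1* (15.1), *CLDN12* (7.80), *CXADR* (5.04), *CLDN7* (4.62), *OCLN* (1.33), *CLDN3* (1.33), *CLDN1* (0.546), *CLDN11* (0.395) and *CLDN6* (0.0711 CPM per kilobase). *CLDN4* and *TJP1* were set apart from the next gene by more than the spread of the libraries, with ranges of 27.6 to 34.5 and 14.01 to 16.2, whereas *CLDN12*, *CXADR* and *CLDN7* overlapped. *CLDN3* stood above *CLDN1* only through WT-2 and was below it in WT-1 and WT-3. In the clones the order changed. *CXADR* led with 14.6 CPM per kilobase in CS16 and 15.02 in CS19, followed by *TJP1* with 8.70 and 10.1, *CLDN12* with 8.47 and 7.49 and *OCLN* with 2.66 and 4.06. *TJP1* and *CLDN12* overlapped in CS16 and not in CS19. *CLDN1* came next in CS19 at 0.900 CPM per kilobase, and the other claudins among the members were below 0.12.

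Summed per length over all 24 claudin genes of the lists, the claudin level was 62.5 ± 6.72 CPM per kilobase in WT, 15.4 ± 0.82 in CS16 and 14.1 ± 0.60 in CS19 (SD, n = 3 each). The range of WT, 55.5 to 68.8, lay above every library of the clones. *CLDN4* made up 50.5% ± 3.77 of the WT sum and 0.378% of that of CS16. *CLDN12* made up 12.9% ± 6.57 in WT, 54.9% ± 4.73 in CS16 and 53.0% ± 3.01 in CS19 (SD, n = 3 each), while its own level, 7.80, 8.47 and 7.49 CPM per kilobase, stayed within the spread of WT. *CLDN15*, a claudin of the intestinal epithelium that forms sodium pores, followed with 4.05% in WT, 30.5% in CS16 and 26.8% in CS19. Its log2 fold change in both clones together was 0.71 and did not pass the test (standard error 0.34, edgeR QL, BH-adjusted p = 0.0908). Its WT levels were 4.64, 13.5 and 4.52 CPM against 10.2 to 15.5 CPM in the clones, and without WT-2 the log2 fold change was 1.42 (standard error 0.21, edgeR QL, BH-adjusted p = 0.000101). *CLDN23*, *CLDN2* and *CLDN7* accounted for 9.46%, 7.97% and 7.56% in WT, and *CLDN1* for 6.35% in CS19. A share depends on every other claudin in the sum and is not a level.

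**Figure D3:**
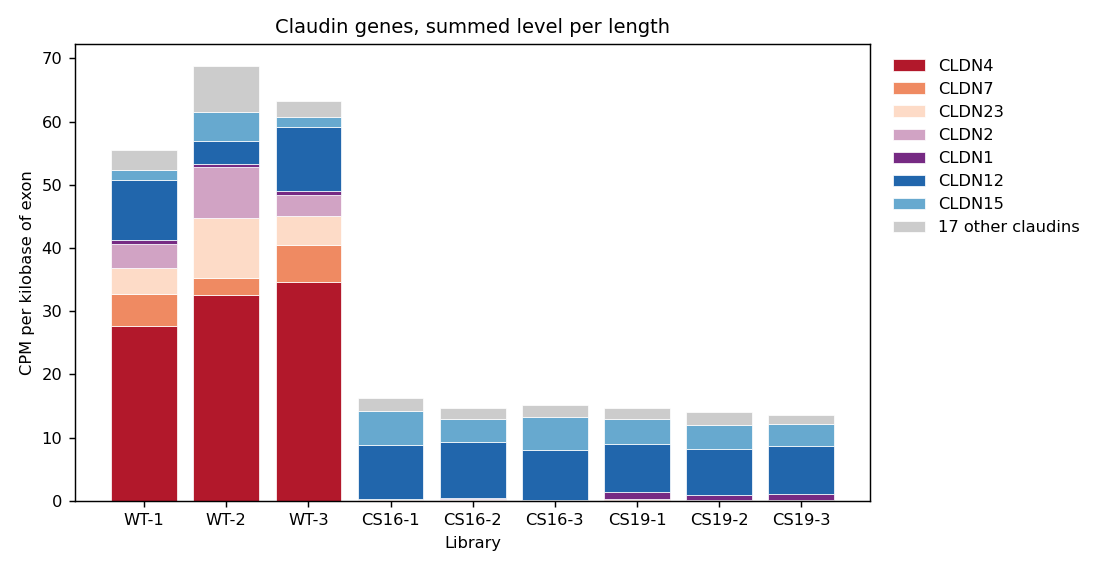
Stacked bars of the level per length (CPM per kilobase of exon, linear axis from 0) of claudin genes in each of the 9 libraries, with 7 genes in colour and 17 others in grey. The WT bars reach 55.5 to 68.8 with *CLDN4* as the main part, and the bars of the clones reach 13.6 to 16.3 with *CLDN12* and *CLDN15* as the main parts.

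The rest of the junction was described with 57 further genes, of which 44 passed the filter in the comparison of *SNAI1*-KO with WT. Of these, 7 were called higher and 7 lower, beside 12.6% and 14.3% of all genes tested. *BVES*, *LIN7A*, *CLDN10*, *MARVELD3* and *JAM2* passed the filter through the clones only. *CLDN2*, *CLDN23*, *CLMP* and *MARVELD2* passed it through WT only. These genes had to differ, so the number of calls and their split over roles are a description. The adjusted p was passed by 13 in the higher and 19 in the lower direction, beside 31.1% and 32.6% of all genes tested, and the median log2 fold change was -0.30 against -0.0040. Called genes in both directions occurred among the claudins and the MARVEL, immunoglobulin, scaffold and polarity genes, whereas the angulins held no call and the regulators held 1, which was higher. The called genes of lowest adjusted p are described by role.

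Of 6 JAM and other immunoglobulin genes, 5 were tested, 3 passed as higher and 2 as lower. *JAM3*, a junctional adhesion molecule, stood at 2.47, 2.85 and 2.05 CPM in WT and at 73.6 to 86.2 CPM in the clones, with a log2 fold change of 5.04 (standard error 0.18). *JAM2*, its relative of endothelial junctions, had 9, 2 and 5 counts in WT and 73 to 110 in the clones, a log2 fold change of 3.83. The other direction held for *CLMP*, a CXADR-like adhesion protein, at 40.1, 38.5 and 50.4 CPM in WT and 0.0982 to 0.382 CPM in the clones (log2 fold change -7.58). *ESAM*, known from endothelial junctions, fell from 49.2, 78.7 and 53.9 CPM in WT to 1.098 to 2.68 CPM in the clones (log2 fold change -5.11).

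Of 17 other claudins, 7 were tested, 1 passed as higher and 2 as lower. *CLDN2*, a pore-forming claudin for cations and water, fell from 13.2, 27.3 and 11.4 CPM in WT to 0 to 0.182 CPM in the clones (log2 fold change -7.60). *CLDN23* fell from 8.68, 20.6 and 9.96 CPM to 0.0434 to 0.334 CPM (log2 fold change -6.61). *CLDN10*, another pore-forming claudin, was called higher from 0, 1 and 0 counts in WT to 7 to 19 counts in the clones, a ratio of 35.1 with a 95% counting interval of 6.13 to 1401. Of the MARVEL genes, the tricellulin gene *MARVELD2* fell by 4.41 on the log2 scale and *MARVELD3* rose by 3.63 from at most 3 counts per WT library.

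Among 11 scaffold genes, all tested, 4 passed as higher and 5 as lower. *CGN* encodes cingulin, which links ZO proteins to myosin and microtubules, and it rose from 3.80, 7.64 and 4.26 CPM in WT to 27.0 to 36.5 CPM in the clones (log2 fold change 2.59). Among 12 polarity genes, 11 were tested, 3 passed as higher and 4 as lower. *LIN7A*, a partner of the Crumbs complex, had 2, 0 and 2 counts in WT and 669 to 1064 counts in the clones. *BVES*, which encodes a membrane protein of epithelial contacts, had 0 counts in every WT library and 19.4 to 22.9 CPM in the clones, at least 133.1-fold higher. Of the 6 regulators to which it belongs, 1 passed as higher and 4 as lower. Of the 3 angulins, 2 were tested and 1 passed as lower.

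**Figure D4:**
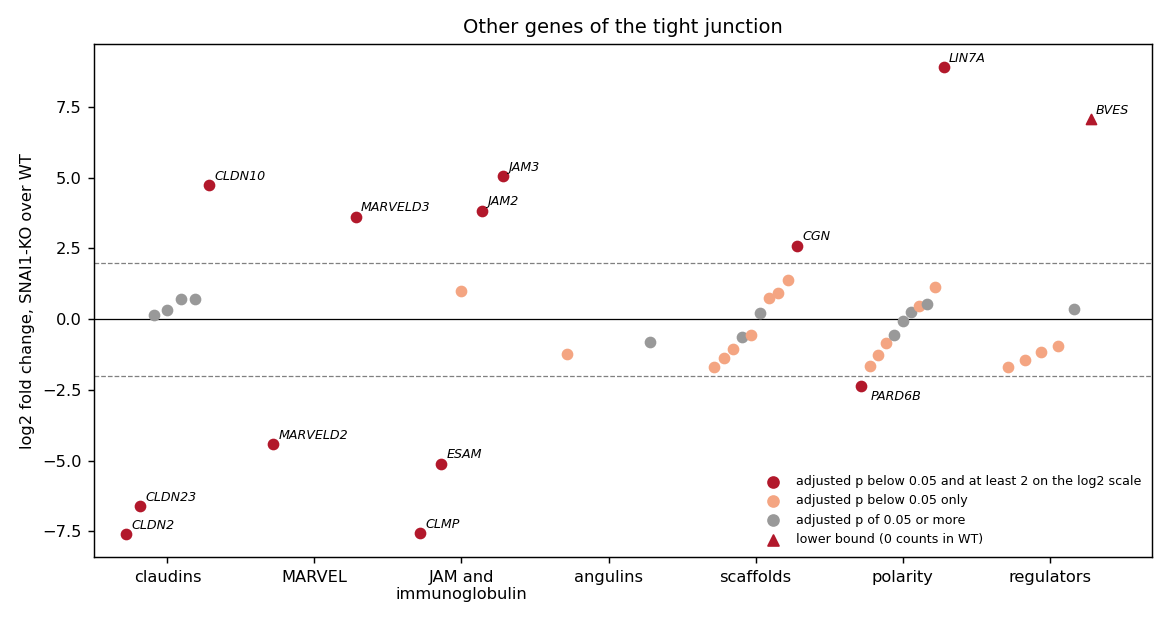
Log2 fold change of *SNAI1*-KO over WT (vertical axis) for 43 tested genes of the wider tight junction list, grouped by role; dark points passed the adjusted p and the fold cut-off (dashed lines at 2 and -2), pale points the adjusted p alone, and the triangle marks a lower bound. The 13 dark points lie in 6 of the 7 groups and on both sides of 0, 7 above and 6 below.

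Between the clones, 40 of the 57 genes were tested and 1 was called, beside 1.13% of all genes tested. *PARD6A*, a polarity protein that joins PAR3 and atypical protein kinase C, was at 0.441 to 0.668 CPM in CS16 and 2.59 to 3.60 CPM in CS19, a log2 fold change of -2.37 (standard error 0.27, edgeR QL, BH-adjusted p = 2.4e-05). *LSR*, an angulin of contacts between 3 cells, was at 7.30 to 8.04 CPM in CS16 and 18.5 to 22.7 CPM in CS19 (log2 fold change -1.37), and *F11R*, the gene of JAM-A, was at 15.8 to 21.4 CPM in CS16 and 26.4 to 31.2 CPM in CS19 (log2 fold change -0.67). These last genes were singled out after their values were seen. Of the genes tested, 8 passed the adjusted p as lower in CS16 and 2 as higher, beside 12.7% and 14.7% of all genes. Against the shared WT libraries, 14 of 43 tested list genes were called in CS16 (6 higher, 8 lower) and 14 of 44 in CS19 (7 higher, 7 lower), beside 27.1% and 26.4% of all genes. Here too, genes that passed the filter through the clone or WT alone had to differ.

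Transcription factors that act on junction genes were set beside the members. *SNAI1* had a log2 fold change of 0.89 under the knockout labels (standard error 0.42, edgeR QL, BH-adjusted p = 0.0838). Its relative *SNAI2* was at 24.98 to 39.3 CPM in WT, at 70.7 to 77.8 CPM in CS16 and at 2.62 to 5.07 CPM in CS19. *SNAI2* was thus highest in CS16, where *CLDN1* was lowest, and lowest in CS19, where *CLDN1* was highest, with log2 differences of CS16 over CS19 of 4.36 for *SNAI2* and -4.14 for *CLDN1*. The repressor *ZEB1* fell by 1.22 on the log2 scale (edgeR QL, BH-adjusted p = 5.4e-05) and *ZEB2* rose by 0.91 (edgeR QL, BH-adjusted p = 0.00202). *GRHL1*, of the grainyhead family of epithelial activators, had 26, 20 and 33 counts in WT, 79 to 92 in CS16 and 260 to 331 in CS19, an order with 3 separate steps like that of *OCLN*. *GRHL3* rose from 5 to 8 counts in WT to 10 to 28 counts in the clones (log2 fold change 1.16, edgeR QL, BH-adjusted p = 0.0228). *GRHL2*, *OVOL1* and *OVOL2* had at most 5 counts in any library and were not tested. Whether any of these factors acted on the members was not tested.

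For each tested member, the genes most like it were ranked by Pearson correlation of log2 CPM over the 9 libraries, which are 3 groups of 3, so that most of each correlation reflects the steps between groups. The leading genes were *DDIT4* for *CLDN1* (r = 0.981), *RASSF4* for *CLDN4* (0.998), ENSG00000274265 for *CLDN7* (0.995), ENSG00000246090 for *CLDN11* (0.991), *SMARCAD1* for *CLDN12* (0.997), *MCOLN3* for *OCLN* (0.992), *STK38L* for *CXADR* (0.999) and *LINC01836* for *TJP1* (0.991). For *CLDN12* and *CXADR* the pattern included the low value in WT-2.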

How the data were processed

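RNA was depleted of ribosomal RNA and made into stranded libraries, which were sequenced from both ends. Per the labels and the study's methods, the authors trimmed the reads (Trimmomatic 0.36), aligned them to GRCh38 (STAR 2.7.2b) and counted read pairs per gene with featureCounts of Subread 2.0.0. Deposited were unnormalized integer counts by gene and library, with 19527195 to 28627777 counted pairs per library. Strand was not used in the counting, so overlapping and copied genes are uncertain. Of 60708 genes, 60507 were matched to a symbol (99.67%).

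Groups were compared in R 4.3.3 by edgeR 4.0.16 (filterByExpr, TMM, quasi-likelihood test across all genes, Benjamini-Hochberg adjustment), with DESeq2 1.42.0, the tool of the study's methods, as an alternative. Both clones together and each clone were compared with WT, and CS16 with CS19. Standard errors came from the log2 fold change and the F value. Low-count ratios carry exact 95% intervals for counting error. The other alternatives were RLE and upper-quartile factors, other filters, a fold cut-off of 1, a shared fit, a replicate block and leaving out each library. The steps were tested on simulated data.

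The members, lists and rules were chosen with earlier results of these data known. Named genes were the members, the 5 called list genes of lowest adjusted p each way, the transcription factors, the copies and overlapping genes, and the genes most like each member. For 1 list gene the values are not reported here. Other list genes were named after their values were seen. Python 3.11.15 with pandas 2.3.3 and matplotlib 3.10.9 served for sequences, tables and plots.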

Additional observations from a re-analysis of the deposited data

Results flagged for a closer look

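Among the 6 libraries labelled *SNAI1*-KO, *CLDN3* had 1 library apart from the rest, with a gap to the nearest value equal to 1 of the range. This is a single count in CS19-2 against 0 in the others. With only 1 library above 0 the gap had to equal the range, so the flag was fixed in advance. The clones differed in a direct test for 3 members, of which *TJP1* no longer passed under 10 alternatives and *OCLN* in a fit shared with WT (adjusted p of 0.166, edgeR's quasi-likelihood test). The log2 difference of CS16 over CS19 was -4.14 for *CLDN1*, which was below WT in CS16 and above WT in CS19. It was -0.62 for *OCLN*, which was above WT in both clones, and -0.21 for *TJP1*, which was below WT in both. Each clone is 1 line, so the knockout and the clone cannot be told apart.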

How the results depend on the processing

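Of 430 alternative values of the members' log2 fold changes, 389 kept direction and side of the threshold, 25 no longer passed, 2 newly passed and 14 changed sign. For levels and shares, 123 of 123 stayed within 1 SD. Leaving out 1 of 3 libraries cannot move a mean by 1 SD, and library factors cancel in a share. That outcome was therefore fixed in advance, except for the levels with RLE factors. Where no cause is named below, the cause was not tested. Leaving out single libraries gave -0.57 to 0.045 for *CLDN1* in both clones against WT, positive without any CS16 library. For *CLDN12* it gave -0.31 to 0.29 in both clones and -0.22 to 0.39 in CS16, negative without WT-2 alone, and -0.38 to 0.22 in CS19, positive without WT-1, WT-3, CS19-1 or CS19-2. *CLDN12* in CS19 was also 0.020 with upper-quartile factors, 0.027 without a filter and 0.11 with the replicate block. *CXADR* between the clones ranged from -0.095 to 0.025, positive without CS16-3 or CS19-3. *TJP1* between the clones no longer passed under 10 alternatives, and *OCLN* there had an adjusted p of 0.166 in the shared fit, which took its spread from all 3 groups.

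With a fold cut-off of 1, members called numbered 5 in both clones and 5 in CS19, the list 25, 25 (CS16), 24 (CS19) and 3 (between clones), and all genes 9251, 8567, 8309 and 833. Without a filter, all genes called were 8662, 7513 (CS19) and 352 (between clones). The shared fit gave 1 member and 654 genes with an adjusted p below 0.05 between clones. Leaving out single libraries, 3 to 4 members were called in both clones, 4 to 5 in CS16, 3 to 4 in CS19 and 1 between clones. DESeq2 called 4, 5, 4 and 1, and 7662 genes in both clones.

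Same-numbered libraries correlated between -0.206 and 0.19 in their deviations from the group means, and differently numbered ones between -0.212 and 0.218. No shared effect of the number was seen, but 3 libraries per group cannot show that the samples were unpaired. The replicate block gave 3, 4, 3 and 1 members called, as without it, and 3179 genes with an adjusted p below 0.05 between the clones against 4814. At 3 counts the floor of 0.0982 to 0.171 CPM limits *CLDN3*, *CLDN6* and *CLDN11*. Chosen after seeing the data, leaving out WT-2 moved *CLDN15* from 0.71 to 1.42 and the *CLDN3* limit in CS16 from 12.4-fold to 3.72-fold. With DESeq2 the median of all genes in CS16 against WT moved to -0.14 from -0.03.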
